A study of Danio rerio with 35 samples.

Results

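The ageing of granulin-deficient brains was followed by comparing whole telencephali of old mutant zebrafish with those of young mutant zebrafish. The members were 10 libraries, 5 of old mutants and 5 of young mutants, of the 35 in the series. The other telencephalon libraries, 5 of old and 5 of young wildtype fish, showed where the mutants differed. They were also part of the gene filter and of the limma fit. The spread behind the limma p-values of old against young mutants therefore includes theirs. Old fish were 18 months and young fish 5 months of age. All 10 mutants were grna-/-;grnb-/-, so they carried frameshift alleles with a premature stop in grna and grnb, while the shorter paralogs grn1 and grn2 were not targeted, and each library was made from the RNA of a telencephalon. The values are gene counts that the authors divided by one size factor per library, called normalised counts here, and 19877 of the 24030 genes had a mean of at least 5 of them and were tested. Reads assigned to genes amounted to 19684471 to 25321567 per library in old mutants and 13891845 to 23646597 in young mutants. The study describes its mutant and wildtype fish as siblings, but which libraries share parents, and the hour of dissection, are not given in the sources used here.

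Granulin is a secreted and lysosomal glycoprotein that microglia and neurons make, and in mammals its loss leads to lysosomal storage and to microglial activation. The adult zebrafish telencephalon keeps dividing glial progenitors along its ventricle, which give rise to new neurons throughout life, and this production is known to decline with age. A dividing progenitor transcribes genes for DNA replication and for the mitotic spindle, and the neuron that comes from it passes through a stage with high stathmin and tubulin transcripts. These are RNA levels of whole tissue, in which fewer cells of a type and less RNA per cell cannot be told apart. The forebrain genes TBR1 and EOMES, which mark excitatory neurons and their precursors, were high in every mutant library. TBR1 was at 5904 to 11060 normalised counts in old mutants and 5836 to 6779 in young mutants.

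The targeted genes were looked at first, because they check the labels. Old mutants had grnb at 21.3, 21.1, 15.8, 15.9 and 4.87 normalised counts, against 12.7, 20.2, 15.5, 20.3 and 14.9 in young mutants. All 10 values lay under every wildtype library, since grnb was at 57.2 to 118 in old wildtype and 408 to 905 in young wildtype. The gene did not pass the test between ages in mutants (log2 fold change -0.20 ± 0.31 SE, exact permutation test of the group means, two-sided p = 0.849). For grna, whose alleles leave a transcript that is still counted, old mutants had 418, 229, 494, 275 and 252 normalised counts and young mutants 582, 440.1, 444, 281 and 486. The ranges overlapped, with a log2 fold change of -0.45 ± 0.30 SE (exact permutation test, two-sided p = 0.119; the smallest p this test allows with 5 against 5 is 0.00794).

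The 5 old mutant libraries were not alike. Old mutants 1 and 2 lay closer to each other and to old wildtype fish than to the young fish of their own genotype, while old mutants 3, 4 and 5 lay closer to young mutants than to old wildtype. The distance used is the root mean square difference of log2(normalised count + 1) over all tested genes. Old mutant 1 was 0.67 from old mutant 2, on average 0.82 from old wildtype libraries and 1.02 from young mutants. Old mutant 2 was on average 0.82 from old wildtype libraries and 1.00 from young mutants. For old mutant 3 these mean distances were 0.94 to old wildtype and 0.77 to young mutants, for old mutant 4 they were 1.04 and 0.77, and for old mutant 5 they were 1.00 and 0.87. Between the subsets the distance was larger than within either, with mean distances of 0.99 from old mutant 1 and 1.00 from old mutant 2 to the other 3 old mutants.

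**Figure D1:**
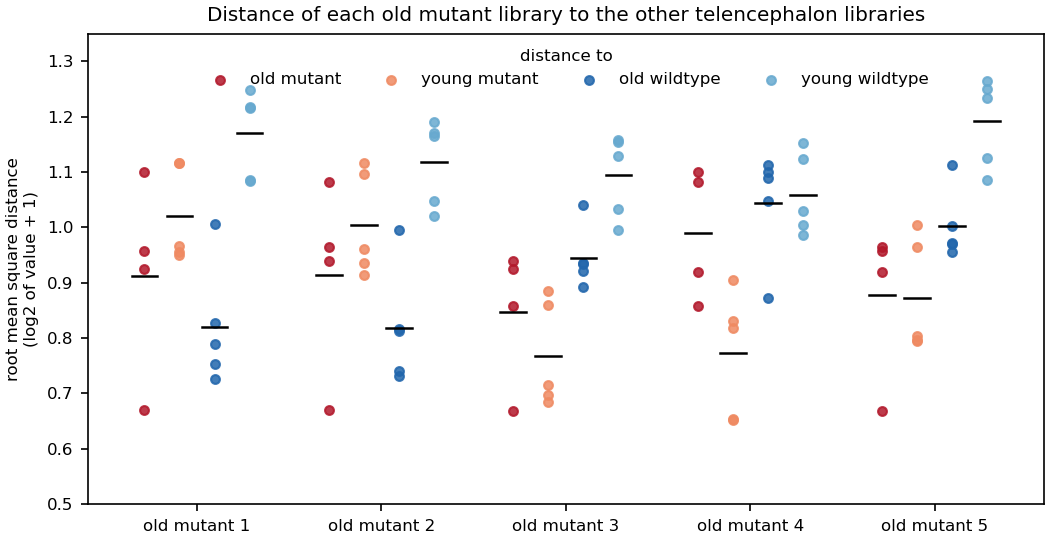
Each point is the distance between 1 old mutant library (horizontal axis) and 1 other telencephalon library, as the root mean square difference of log2(normalised count + 1) over the tested genes, and colours give the group of that other library. Black lines are means. For old mutants 1 and 2 the mean distance to old wildtype (0.82 for both) is smaller than that to young mutants, and for old mutants 3 to 5 the order is the other way round.

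Genes of the pineal gland, which sits on top of the telencephalon, also set libraries apart. Their median over 24 genes was 730.1 normalised counts in old mutant 4 and 3.90 to 5.33 in the other old mutants, and it was 598 and 619 in young mutants 2 and 4 against 6.90 to 8.21 in the other young mutants. With these libraries left out, as well as the wildtype libraries with high pineal genes, old mutant 1 was on average 0.77 from old wildtype and 0.96 from young mutants, and old mutant 3 was 0.92 from old wildtype and 0.70 from young mutants. The order of these distances was the same as with all libraries for old mutants 1, 2, 3 and 5.

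Among genes called at a fold change of at least 2, more were lower than higher in old mutants. In old mutants 61 genes were higher (0.307% of those tested) and 202 were lower (1.02%) than in young mutants, at an adjusted p of at most 0.05 in limma and a fold change of at least 2. Without the fold threshold 635 genes were higher and 594 lower. With only the mutant libraries in the fit, 19 genes were higher and 50 lower. The median log2 fold change of all tested genes was -0.01. With only old mutants 3 to 5 against the 5 young mutants, 27 genes were higher (0.136%) and 148 lower (0.745%). Of these, 14 of the higher and 97 of the lower genes were also called with all 5 old mutants. Old mutants 1 and 2 alone gave 464 higher (2.33%) and 1069 lower (5.38%) genes, of which 48 and 141 were also called with all 5. Without the libraries with high pineal genes, 28 genes were higher (0.141%) and 65 lower (0.327%), 19 and 51 of them shared with the full set. Among the 44 called genes that the naming rule took, 18 lost their call with old mutants 3 to 5 only and 28 without the pineal libraries. With only the mutant libraries in the fit, 24 of the 44 lost it. The call in either direction covered 263 genes (1.32%). Apart from any test, 817 genes (4.11%) had all 5 old mutant values above all 5 young mutant values, and 608 (3.06%) had all of them below.

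Genes of cell division made up the list with the most lower genes. Of 46 genes of S phase and mitosis, 17 were lower in old mutants and 0 higher, and all 46 had a negative log2 fold change (median -0.95). These counts stand beside 1.02% of all tested genes called lower and a median of -0.01. The same 1.02% lower, and 0.307% higher, stand beside the counts of the other lists. The 17 held genes for replication (MCM4, GINS2, TYMS, TK1), for the cyclins and kinases of the cycle (ccne1, CCNA2, CDK1, CDK2, plk1) and for the spindle and chromosomes (kif20a, nusap1, TPX2, TOP2A, CENPF, TTK, aurkb), together with mki67. Those without values below were named because of the list's count and not by the rule for named genes.

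The mitotic kinesin gene kif20a was at 21.3, 22.16, 18.5, 15.07 and 6.82 normalised counts in old mutants, against 83.8, 79.7, 54.4, 55.1 and 44.8 in young mutants. No old value reached the lowest young one (log2 fold change -1.92 ± 0.29 SE, adjusted p = 0.00147). For nusap1, which bundles spindle microtubules, old mutants had 53.3, 51.7, 64.2, 20.1 and 25.3 and young mutants 116, 122, 155, 126 and 85.6, with the low values in old mutants 4 and 5 (-1.58 ± 0.27 SE, adjusted p = 0.00334). The spindle assembly factor gene TPX2 was at 59.1, 51.7, 42.2, 31.0 and 16.6 in old mutants and at 107, 99.9, 137, 85.5 and 82.6 in young mutants (-1.43 ± 0.25 SE, adjusted p = 0.00421). The condensin gene NCAPG, chosen by its size of change, averaged 34.9 ± 20.2 in old mutants and 103.9 ± 31.0 in young mutants (SD, n = 5 each; -1.75, adjusted p = 0.0091). The mitotic kinase gene aurkb had 44.8 to 64.8 in old mutants and 94.2 to 129 in young mutants. Its change of -1.05 (adjusted p = 0.00157) fell just under the fold threshold, to -0.98, without old mutant 5.

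By library, the decline of the list was not the same in every old mutant. The median of its 46 genes, as a log2 difference from the mean of young mutants, was -0.43, -0.71, -0.70, -1.31 and -1.73 in old mutants 1 to 5, against 0.19, -0.04, 0.41, -0.12 and -0.47 in young mutants 1 to 5. Old mutant 1 thus overlapped young mutant 5, and old mutants 4 and 5 were the lowest of all 20 telencephali. In old wildtype it was between -0.89 and -0.58, and in young wildtype between -0.35 and 0.16. With old mutants 3 to 5 only, 23 of the 46 genes were lower, beside 0.745% of all tested genes, and the median was -1.17. With old mutants 1 and 2 only, 6 were lower, beside 5.38% of all tested genes, and the median was -0.51. Without the pineal libraries the median was still -0.91, but only 1 gene was called lower, beside 0.327% of all tested genes and with fewer libraries in the test. Leaving out old mutant 5 gave 11 lower genes, the fewest of any single old mutant, and leaving out young mutant 3 gave 12.

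Markers of new neurons went the same way. Of 18 genes, 4 were lower and 0 higher (median -0.44 on the log2 scale), beside 1.02% of all tested genes called lower. Without the pineal libraries 1 was lower, beside 0.327% of all tested genes. The stathmin gene stmn1a, whose product destabilises microtubules in young neurons, was at 165, 148, 149, 92.1 and 112 normalised counts in old mutants, against 349, 353, 488, 336 and 275 in young mutants. The groups were far apart and the call held under every alternative tried (-1.43 ± 0.16 SE, adjusted p = 0.000105). The tubulin gene tubb5 was at 6254, 6059, 7841, 5255 and 2366 in old mutants and at 15337, 10269, 15643, 13284 and 12127 in young mutants (-1.35 ± 0.23 SE, adjusted p = 0.00403). The proliferation marker mki67, which is on both lists, averaged 107.5 ± 52.2 in old mutants and 312 ± 108 in young mutants (SD, n = 5 each; -1.65, adjusted p = 0.00693). The Delta ligand gene dlb, a Notch ligand, was at 26.3 to 60.7 and 75.6 to 144 (-1.06, adjusted p = 0.0145), and it was no longer called without old mutant 5, young mutant 1 or young mutant 3 (log2 fold changes of -0.998 to -0.83). The receptor gene gpr17 of committed oligodendrocyte precursors was the 1 lower gene of 17 on that list, at 17.2, 32.7, 33.4, 20.9 and 18.5 in old mutants and 62.6, 73.0, 120, 37.7 and 45.8 in young mutants (-1.37 ± 0.28 SE, adjusted p = 0.00983). Markers of ependymoglia and radial glia (20 genes), mature oligodendrocytes (19), and glutamatergic (22) and GABAergic (21) neurons held no called gene in limma, DESeq2 or edgeR, with 7, 8, 4 and 3 genes at an unadjusted p below 0.05 in limma.

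**Figure D2:**
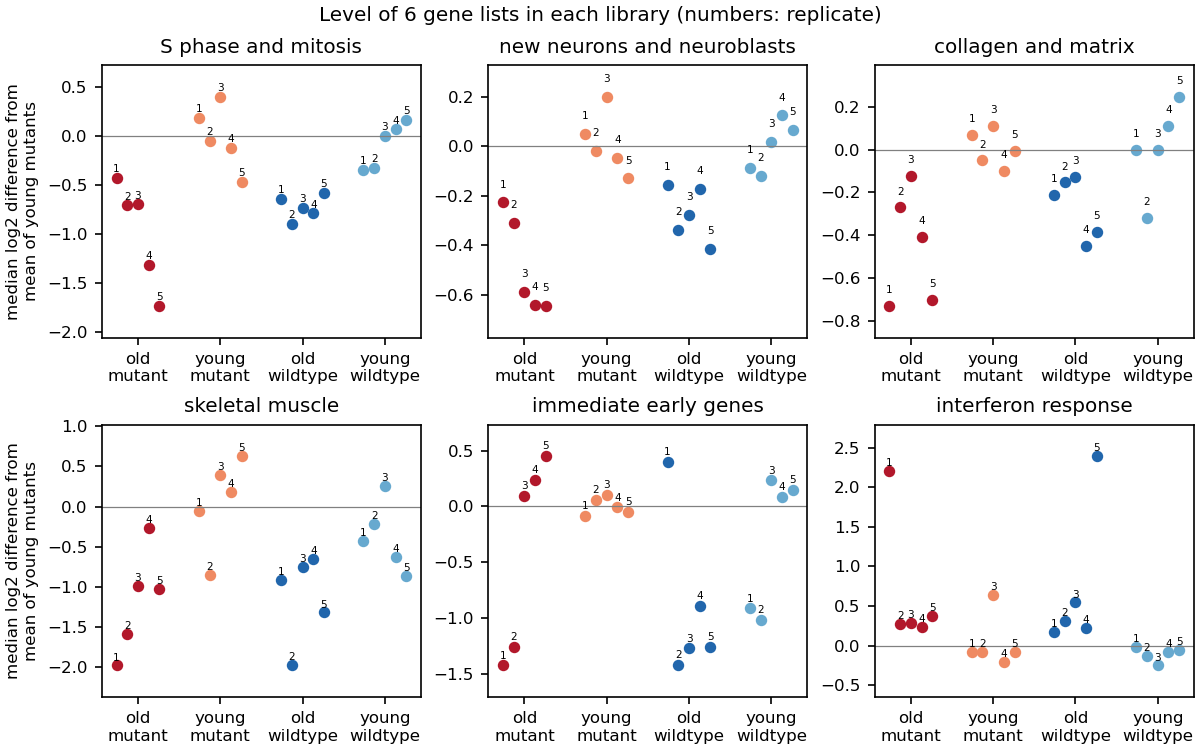
Points are the 20 telencephalon libraries, numbered by replicate, and the vertical axis is the median over a gene list of the log2 difference from the mean of young mutants. S phase and mitosis genes are lowest in old mutants 4 and 5 (-1.31 and -1.73), immediate early genes are low in old mutants 1 and 2 only among mutants, and interferon genes are high in old mutant 1 (2.204).

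Genes of the extracellular matrix were lower as well. Of 102 collagen and matrix genes, 11 were lower and 0 higher (median -0.42 on the log2 scale), beside 1.02% of all tested genes called lower. The 11 were COL6A2, col6a1, col1a1a, col1a1b, col9a2, col16a1, col15a1b, col4a5, col4a6, the crosslinking enzyme gene loxl2b and sparc; those without values below come from the count and not from the rule. The collagen-binding protein gene sparc was at 1088, 1543, 1423, 926 and 629.8 normalised counts in old mutants, against 2749, 3175, 2817, 3794 and 3221 in young mutants. It was lower in every old mutant, and the call held under every alternative (-1.55 ± 0.22 SE, adjusted p = 0.000969). For col15a1b, a basement membrane collagen, old mutants had 74.7, 86.5, 99.3, 118 and 66.3 and young mutants 193, 179.7, 196, 181 and 201 (-1.12 ± 0.25 SE, adjusted p = 0.014). The type I collagen gene col1a1a averaged 187 ± 143 in old mutants and 567 ± 177 in young mutants (SD, n = 5 each; -2.09, adjusted p = 0.0364). Its call was lost without old mutant 1 or without any one of the 5 young mutants (log2 fold changes of -2.17 to -1.93, adjusted p up to 0.087). The related col1a1b had 119 to 409 in old mutants and 500.4 to 1113 in young mutants, and its call was lost without old mutant 1, 2 or 5 or young mutant 1, 2, 3 or 4 (-1.40 to -1.04, adjusted p up to 0.0878). Both collagens are also on the list of leptomeningeal fibroblasts, of which they were the 2 lower among 19. The summed level of those 19 genes was 84356 to 347420 in old mutants and 208330 to 263290 in young mutants, so the groups overlapped. Gene by gene, however, 16 of the 19 were negative (median -0.38), and the list's median relative to young mutants was -0.61, -0.13, 0.03, -0.51 and -0.64 in old mutants 1 to 5, against -0.16 to 0.21 in young mutants. The median of the matrix list was likewise lowest in old mutants 1, 4 and 5, at -0.73, -0.41 and -0.70. The lists share genes, among them col1a1a and col1a1b, so their agreement is partly built in. The part of meningeal RNA in these decreases was not tested. Over the whole matrix list, 5 genes were lower without old mutant 1, 6 without old mutant 5, and 4 without young mutant 3, without young mutant 4 or without the libraries high in pineal genes.

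Skeletal muscle genes, which do not belong to brain, were lower in old mutants. Of 22 genes, 7 were lower and 0 higher (median -0.95 on the log2 scale), beside 1.02% of all tested genes called lower. With old mutants 3 to 5 only, 1 was lower (0.745% of all tested genes were), and with old mutants 1 and 2 only, 11 were (5.38%). With age in wildtype, 8 of the 22 were lower (median -1.25), beside 5.66% of all tested genes. The 7 lower in mutants were the parvalbumins pvalb1, pvalb2, pvalb3 and pvalb4, mylpfa, actc1b and klhl41b. For klhl41b the age effect differed from that in wildtype by 5.66 on the log2 scale, mutant minus wildtype. The fast muscle parvalbumin gene pvalb2 was at 0, 0, 1.76, 0.84 and 0 normalised counts in old mutants, against 22.3, 4.49, 26.8, 23.2 and 46.8 in young mutants. The related pvalb3 was at 0.82 to 10.9 in old mutants and 16.8 to 51.7 in young mutants. The whole list summed to 1401 to 2266 in old mutants and 1802 to 2927 in young mutants, and its median was lowest in old mutants 1 and 2. Parvalbumin genes resemble each other, so reads could have been assigned to a relative. The part of muscle RNA in other changes was not tested.

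A pair of genes was nearly absent from old mutants. The MHC class I gene mhc1uba, which belongs to a family of antigen-presenting molecules that varies between fish, was at 27.08, 16.9, 21.1, 23.4 and 25.4 normalised counts in old mutants, against 2896, 2682, 2419, 3337 and 2984 in young mutants. The change of -6.92 ± 0.26 SE on the log2 scale (adjusted p = 2.87e-12) had a counterpart of -6.73 in wildtype, where old fish had 25.6 to 64.4 and young fish 2656 to 6944. The sialyltransferase gene st3gal1 was at 0, 0, 0.88, 4.19 and 0.97 in old mutants and at 132, 99.9, 68.2, 165 and 165 in young mutants (-6.06 ± 0.45 SE, adjusted p = 1.75e-07, on the log2(normalised count + 1) scale). All 10 wildtype libraries were at 0.98 to 4.83, so young mutants were the only group in which it was high. The tapasin gene tapbp.1, whose product loads peptides onto MHC class I, was at 64.8, 34.8, 29.01, 24.3 and 21.4 in old mutants and at 103, 92.1, 70.8, 89.9 and 102 in young mutants (-1.47 ± 0.30 SE, adjusted p = 0.00874). In limma, mhc1uba and tapbp.1 were the 2 lower genes of 25 on the MHC class I list, with 0 higher and a median of 0.19. Over all tested genes 1.02% were called lower. DESeq2 called 2 genes of that list higher and edgeR 1. Genes of this family share much sequence, so reads could have been split between relatives.

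The gene enpp2, 1 of 8 choroid plexus markers, averaged 36.9 ± 13.7 in old mutants and 96.2 ± 38.3 in young mutants (SD, n = 5 each; -1.39, adjusted p = 0.025 in limma), lost without old mutant 5 or young mutant 1 or 4 (-1.30 to -1.08, adjusted p up to 0.0664). The recombination gene rad54l, 1 of 57 on the DNA repair list, was lower as well (-1.78, adjusted p = 0.0465 in limma). Its call was lost without old mutant 3 or 5 or any one young mutant (-1.90 to -1.15, adjusted p up to 0.0997). Each was the only called gene of its list, beside 1.02% of all tested genes called lower.

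The remaining large decreases were spread over functions. The retinoic acid binding protein gene crabp2a was at 107, 93.9, 113, 157 and 18.5 normalised counts in old mutants, against 306, 255, 394, 399 and 242 in young mutants (-1.94 ± 0.40 SE, adjusted p = 0.00921). RIBC1 averaged 17.5 ± 9.95 in old mutants and 50.1 ± 8.42 in young mutants, and zgc:110540 averaged 15.7 ± 11.82 and 53.0 ± 19.3 (SD, n = 5 each; -1.72 and -1.95). The cartilage matrix gene ucmaa was at 2.92 to 28.5 and 42.4 to 57.9 (-1.96, adjusted p = 0.0211), a call lost without old mutant 2 (-1.87, adjusted p = 0.0521). The phosphoinositide kinase gene pip4k2cb was at 10.7 to 85.4 and 87.2 to 233 (-2.08, adjusted p = 0.0389), and this call held only without old mutant 3 or old mutant 4 among the fits lacking 1 library (-2.25 to -1.70 in those that lost it, adjusted p up to 0.0994).

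The genes called higher with age at this fold threshold were fewer, and in limma no list held more than 2 of them. The most on any list was 7 in DESeq2 and 5 in edgeR, both for fish-expanded innate immune genes. Over all genes these tools called 177 and 96 higher. The lipase maturation factor gene lmf2b was at 845, 858, 912, 634 and 586 normalised counts in old mutants, against 202, 145, 190, 189.9 and 486 in young mutants, where young mutant 5 stood apart (1.78 ± 0.24 SE, adjusted p = 0.000597). The copper transporter gene atp7a was at 328, 230, 172, 258 and 247 in old mutants and at 93.4, 75.2, 117, 56.5 and 63.7 in young mutants (1.61 ± 0.20 SE, adjusted p = 0.000223). The nuclear receptor gene nr1d4b, of the Rev-erb type that represses clock genes, was at 1289, 1068, 799, 570.2 and 1145 in old mutants and at 329, 385, 541, 265 and 372 in young mutants (1.34 ± 0.19 SE, adjusted p = 0.000967). It was the 1 higher gene of 45 on the circadian clock list, whose median was 0.05. All 3 calls held under every alternative.

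The other named higher genes were less even. The endocytic adaptor gene epn3b was at 356, 234, 229, 77.0 and 85.8 normalised counts in old mutants, of which the last 2 were only a little above the 37.1 to 64.7 of young mutants (1.68 ± 0.34 SE, adjusted p = 0.00817). The mitochondrial carrier gene slc25a47a was at 161, 140.3, 304, 247 and 341 in old mutants and at 133, 119, 70.0, 81.2 and 68.6 in young mutants, so here old mutants 1 and 2 were the lowest (1.301 ± 0.25 SE, adjusted p = 0.00615). The transcription factor gene tal1, known from blood and endothelium, was at 199 to 385 and 77.4 to 146 (1.24, adjusted p = 0.00323). The unannotated si:ch211-39i22.1 averaged 327.5 ± 43.8 in old mutants and 142 ± 49.0 in young mutants (SD, n = 5 each; 1.26, adjusted p = 0.00326). The flippase gene atp8b4 (1.17, adjusted p = 0.0112) fell to 0.95 without young mutant 4. The call of eva1bb (1.34, adjusted p = 0.0199) was lost without old mutant 2 or young mutant 4 (1.14 and 1.06, adjusted p up to 0.0567). That of wu:fj29h11 (1.08, adjusted p = 0.0474) was lost without any one library other than old mutant 4 and young mutant 1 (0.84 to 1.16, adjusted p up to 0.114), and old mutant 1 held 1088 normalised counts of it where the other old mutants held 439 to 489.

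**Figure D3:**
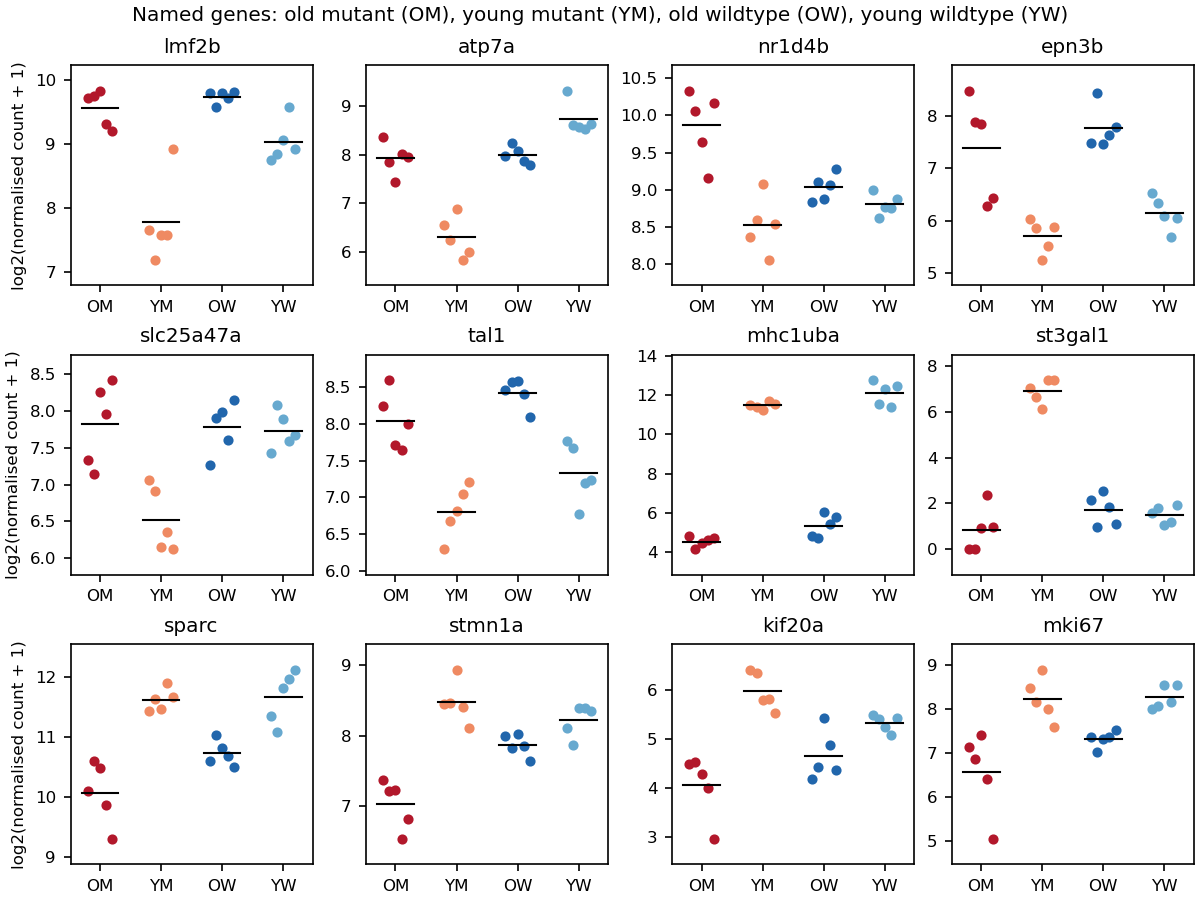
Each panel is a gene and each point a library, on a scale of log2(normalised count + 1), with black lines at group means of the log2 values. Old mutants (OM) and young mutants (YM) do not overlap in any panel. Most of these genes were named by a rule that required this, so the separation follows from the choice of genes. The gene mhc1uba is low in both old groups while st3gal1 is high in young mutants alone.

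Lists of inflammation and the lysosome, which granulin loss is known for, held few called genes with age. Over all tested genes only 1.32% were called either way, so few calls are what lists of this size would hold at that share. None of 33 microglia and macrophage genes, 70 lysosome genes, 18 complement genes or 12 MHC class II genes was called, with median log2 fold changes of 0.10, -0.03, -0.37 and 0.10. At an unadjusted p below 0.05 in limma these lists held 4, 8, 6 and 0 genes, and DESeq2 called 1 microglia gene higher. The cytokine gene il1b was the 1 higher gene of 36 on the inflammatory list, at the low level of 17.2, 11.61, 9.67, 5.86 and 6.82 normalised counts in old mutants and 2.12, 0, 1.73, 5.80 and 0.99 in young mutants (2.03 ± 0.51 SE, adjusted p = 0.0249). It was lost without old mutant 1 or 2 or young mutant 2, 3 or 5 (1.69 to 2.05, adjusted p up to 0.0628). CH25H, the gene of cholesterol 25-hydroxylase, which macrophages induce, was at 22.15, 20.05, 7.91, 10.9 and 29.2 in old mutants and at 4.24, 5.61, 5.18, 0 and 1.99 in young mutants (2.25 ± 0.47 SE, adjusted p = 0.00965). Of 76 fish-expanded innate immune genes, 56 had a positive change (median 0.31), and 2 were higher in limma, 7 in DESeq2 and 5 in edgeR. The 2 in limma were the tripartite motif family members ftr59 (2.02, adjusted p = 0.027) and btr29 (2.65, adjusted p = 0.0279). Their relatives are nearly identical in sequence, and the calls were lost without old mutant 5 or young mutant 2 or 5 for ftr59 (1.71 to 1.80) and without old mutant 1 or young mutant 4 or 5 for btr29 (2.22 to 2.44). Of 18 T and NK lymphocyte genes 2 were lower, ccr9a and il7r, beside 1.02% of all tested genes called lower. The first averaged 40.3 ± 17.3 in old mutants and 114 ± 56.0 in young mutants (SD, n = 5 each, log2 fold change -1.45). The second, il7r, ranged over 7.80 to 17.6 in old mutants and 20.2 to 44.8 in young mutants (-1.11). The ccr9a call was lost without old mutant 2 or young mutant 3, 4 or 5 (-1.45 to -1.20, adjusted p up to 0.0754), and that of il7r without old mutant 2 or 5 or young mutant 2, 3, 4 or 5 (-1.16 to -0.95, adjusted p up to 0.0811).

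Interferon genes were much higher in 1 old mutant library than in the other old mutants. Of 32 genes 31 had a positive log2 fold change and the median was 0.82, yet 0 passed the test in limma, with 9 at an unadjusted p below 0.05, 3 higher in DESeq2 and 1 in edgeR. By library, the list's median was 2.204 above the mean of young mutants in old mutant 1 and 0.27, 0.29, 0.24 and 0.38 above it in old mutants 2 to 5. With old mutants 3 to 5 only, the median log2 fold change of the list was 0.21. Young mutant 3 stood at 0.64 and the other young mutants between -0.20 and -0.07. The interferon-inducible gene ifi27.2 was at 544, 114, 47.5, 47.7 and 35.09 normalised counts in old mutants, against 9.55, 14.6, 32.8, 10.1 and 15.9 in young mutants, which did not overlap but did not pass (2.46, adjusted p = 0.0634). Among old wildtype, replicate 5 likewise stood apart at 2.396. Old wildtype 1 to 4 were at 0.17, 0.31, 0.55 and 0.22, against -0.25 to -0.01 in young wildtype. With age in wildtype 11 of the 32 genes were called higher and 1 lower (median log2 fold change 1.11), beside 5.21% and 5.66% of all tested genes. In all, 33 of the 49 lists held no called gene, among them telomere maintenance (23 genes), heat shock proteins (40), apoptosis (35), cytosolic ribosomal proteins (81), nuclear respiratory chain genes (96), and synaptic vesicle and release (58). Over all tested genes 1.32% were called either way. In those 6 lists DESeq2 and edgeR also called 0 genes, and limma had 6, 9, 10, 53, 17 and 17 at an unadjusted p below 0.05. Small shifts were widespread among the 81 ribosomal protein genes, of which 78 had a negative change with a median of -0.20.

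Set beside ageing in wildtype, ageing in mutants called fewer genes. In wildtype 1035 genes were higher in old fish (5.21%) and 1125 lower (5.66%). The mutant count depended on the old libraries used. It was 464 higher and 1069 lower with old mutants 1 and 2 only, and 27 and 148 with old mutants 3 to 5 only. Pineal genes were also unevenly spread in wildtype, being high in young wildtype 1, 4 and 5 and in old wildtype 1. The part of either in the difference between genotypes was not tested. Of the 61 genes higher with age in mutants, 18 (29.5%) were also higher with age in wildtype and 6 were lower there. Of the 202 lower genes, 66 (32.7%) were also lower in wildtype and 2 were higher. These shared genes made up 1.74% of the higher and 5.87% of the lower wildtype calls. The 1035 genes higher in old wildtype had a median log2 fold change of 0.14 in mutants against 1.68 in wildtype, and the 1125 lower ones -0.39 against -1.54. The difference of the age effects was itself past the thresholds for 513 genes with a more positive effect in mutants (2.58%) and 687 with a more negative one (3.46%), or 1200 in all (6.04%).

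**Figure D4:**
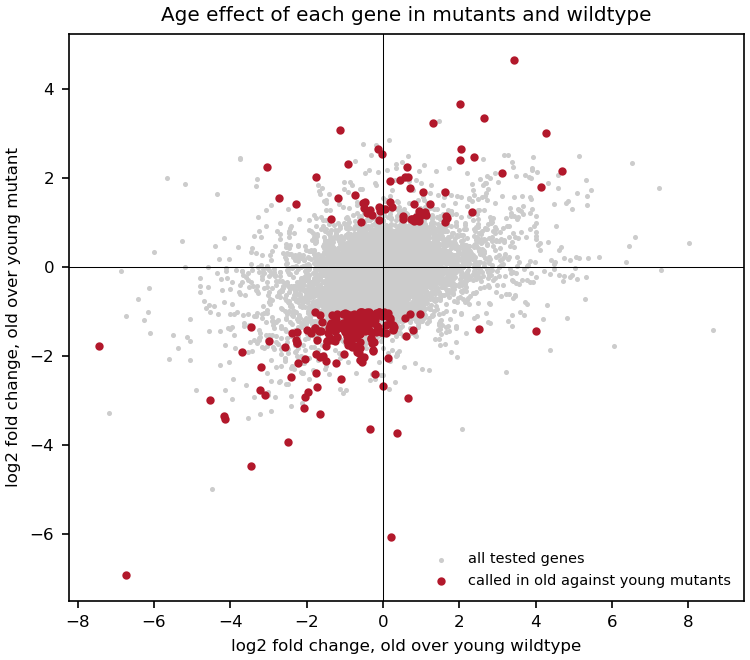
Each point is a tested gene, with its log2 fold change of old over young mutants on the vertical axis and of old over young wildtype on the horizontal axis. Genes called in mutants are red; most of the 202 lower ones lie left of 0, and st3gal1 lies at -6.06 in mutants and near 0 in wildtype.

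The named genes show different shapes of that difference. Old mutants reached the old wildtype level of atp7a (247 ± 56.1 normalised counts in old mutants, 254 ± 31.6 in old wildtype), but the age effect was positive in mutants and negative in wildtype (difference 2.35 ± 0.28 SE, adjusted p = 1.5e-05). The gene stmn1a fell by 1.43 on the log2 scale in mutants and had -0.35 in wildtype (difference -1.08, adjusted p = 0.00435), and kif20a differed by -1.25 (adjusted p = 0.0464). The differences for aurkb (0.00, adjusted p = 0.992), mki67 (-0.70, adjusted p = 0.316) and sparc (-0.61, adjusted p = 0.189) did not pass. Several large differences came from genes whose age effect was far larger in wildtype, while that of st3gal1 lay in mutants (-6.06, against 0.22 in wildtype). The innate immune receptor gene nlrc11 was at 0 to 2.92 in old mutants and 2.12 to 4.35 in young mutants, while old wildtype had 886 to 1271 and young wildtype 0 to 3.79 (difference -10.06, adjusted p = 1.39e-09). The gene si:ch211-181d7.2 was likewise high in old wildtype alone (difference -7.47), and si:dkey-9c18.3 was at 0 to 2.59 in all mutants and at 0.85 to 4.03 in old wildtype, but at 320 to 429 in young wildtype (difference 6.76). The gene si:ch211-213a13.11 was high in both mutant groups, at 594 to 1062 in old and 841 to 944 in young mutants, and at 3.65 to 5.43 in young wildtype alone (difference -7.33).

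The split of the old mutants was then described gene by gene, with no test, because libraries 1 and 2 were set against 3 to 5 for the way they differ. In old mutants 1 and 2 together, 744 genes were higher (3.74% of those tested) and 1268 lower (6.38%) than in old mutants 3 to 5, without overlap and by at least 1 on the log2 scale. At a difference of at least 2 these numbers were 217 (1.09%) and 396 (1.99%), and at least 3 they were 90 (0.453%) and 134 (0.674%). Of the 217 higher genes, 80.6% had an old wildtype mean nearer to old mutants 1 and 2 than to old mutants 3 to 5, and 17.1% had a young mutant mean nearer to them. Of the 396 lower genes, 64.9% had the old wildtype mean nearer to old mutants 1 and 2, and 7.07% the young mutant mean. Young wildtype was nearer to old mutants 1 and 2 for 54.4% of the higher and 37.9% of the lower ones.

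A small number of these genes were high in one subset and nearly absent from the other. Under 10 normalised counts in both of old mutants 1 and 2 and at least 50 in all of old mutants 3 to 5 were 16 genes, and 17 showed the reverse. The unannotated si:ch211-114l13.1 was at 0.82 and 1.06 in old mutants 1 and 2, and at 702, 682 and 739.9 in old mutants 3 to 5. Young mutants were at 559.6 to 731, old wildtype at 1.97 to 5.64 and young wildtype at 454 to 650.4. The phosphatase gene ctdnep1b, whose product acts at the nuclear envelope, was at 9.85 and 4.22 in old mutants 1 and 2, and at 333, 397 and 295 in old mutants 3 to 5. Young mutants had 364 to 438 of it, and all wildtype libraries, old and young, had 4.58 to 12.8. The gene si:dkey-182g1.3 had the same shape, at 0 in old mutants 1 and 2, 111 to 164 in old mutants 3 to 5, 100.5 to 158 in young mutants and 0 to 1.26 in wildtype. Old mutants 3 to 5 had the Hsp90 co-chaperone gene ahsa1a at 139, 265 and 186, against 2.46 and 0 in old mutants 1 and 2, but young mutants were mixed, with 2.12 in young mutant 1 and 115 to 299.8 in the others. Mixed young mutants were likewise found for si:ch1073-190k2.1, si:dkey-19f4.2 and zgc:158862, where at least 1 of the 5 was under 3 normalised counts while the highest had 128 to 351. For the last of the 8 genes lower in old mutants 1 and 2, a noncoding RNA gene, all young mutants lay near old mutants 3 to 5, as they did for si:ch211-114l13.1, ctdnep1b and si:dkey-182g1.3.

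Among genes high in old mutants 1 and 2, several were also high in old wildtype. The clathrin adaptor gene ap1s3a was at 135 and 131 in old mutants 1 and 2, at 0 to 2.51 in old mutants 3 to 5 and at 0 to 3.18 in young mutants. Old wildtype had 53.8 to 86.5 of it and young wildtype 0 to 1.26. The metalloprotease gene ADAMTS7 was at 146 and 282 in old mutants 1 and 2, at 0.84 to 6.82 in old mutants 3 to 5, at 3.45 to 6.36 in young mutants, at 116 to 292 in old wildtype and at 4.35 to 13.4 in young wildtype. The genes si:dkey-257e4.2 and si:ch211-209l18.4 followed old wildtype in the same way, at 67.3 and 80.2 and at 624 and 598 in old mutants 1 and 2, with no other mutant above 1.73 for si:dkey-257e4.2 or above 8.98 for si:ch211-209l18.4. Others were high in wildtype fish, and only in part of the old ones. The immunity-related GTPase gene irge4 was at 112 and 60.1 in old mutants 1 and 2, at 0 to 2.59 in all other mutants, in old wildtype at 78.5 in replicate 4 and 0 to 2.42 elsewhere, and at 113 to 215 in young wildtype. Like irge4, si:dkey-19a16.7, si:dkey-29g22.2 and si:ch211-209l18.8 were high in young wildtype, high in some old wildtype libraries and nearly absent from all mutants but old mutants 1 and 2. The GTPase gene irgq1 was at 69.7 and 24.3 in old mutants 1 and 2 and at 0 to 3.35 in the other mutants. The gene si:dkey-27p18.3 was high in old mutant 2 alone among mutants, at 108, so that old mutants 1 and 2 were not alike in every such gene.

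**Figure D5:**
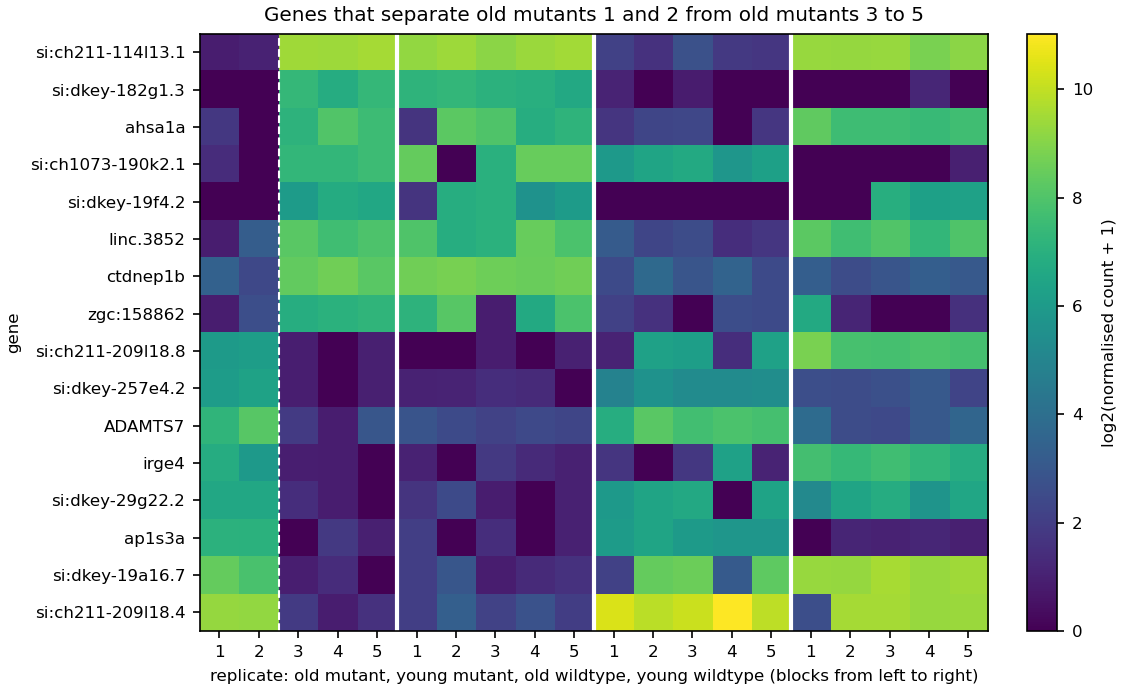
Rows are the 16 genes with the largest differences between old mutants 1 and 2 and old mutants 3 to 5, columns are the 20 libraries in 4 blocks (old mutant, young mutant, old wildtype, young wildtype, with the dashed line after old mutant 2), and colour is log2(normalised count + 1). In rows such as ctdnep1b, si:ch211-114l13.1, ap1s3a and ADAMTS7 old mutants 3 to 5 lie near young mutants, and old mutants 1 and 2 lie nearer to old wildtype. For ap1s3a old mutants 1 and 2 are above every old wildtype library. In other rows, such as ahsa1a, si:ch1073-190k2.1 and irge4, single libraries of the young mutant or old wildtype groups differ.

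Whole gene lists, not only the genes of the split, also differed between the subsets. Immediate early genes, which neurons and glia switch on within minutes of stimulation or handling, had a median difference of -1.52 on the log2 scale between old mutants 1 and 2 and old mutants 3 to 5, with 34 of 38 lower in old mutants 1 and 2. The list's median relative to young mutants was -1.42 and -1.26 in old mutants 1 and 2, and 0.09, 0.24 and 0.45 in old mutants 3 to 5. Young mutants lay within 0.11 of their mean, old wildtype 2 to 5 between -1.42 and -0.89, old wildtype 1 at 0.40, and young wildtype 1 and 2 at -0.91 and -1.01 while young wildtype 3 to 5 were at 0.09 to 0.23. The transcription factor gene fosb, chosen after its values were seen, was at 77.9 and 114 in old mutants 1 and 2 and at 1953, 2250 and 2352 in old mutants 3 to 5, beside 1508 to 1946 in young mutants. The glucocorticoid-responsive klf9, also chosen afterwards, was at 40.2 and 103 in old mutants 1 and 2, at 1092 to 2091 in old mutants 3 to 5 and at 998 to 1696 in young mutants. None of the 38 genes was called by limma, DESeq2 or edgeR between all 5 old and 5 young mutants (2 had an unadjusted p below 0.05 in limma). When old mutants 1 and 2 were compared alone with young mutants, 12 were lower, beside 5.38% of all tested genes.

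S phase and mitosis genes ran the other way, with a median difference of 0.70 and 42 of 46 higher in old mutants 1 and 2 than in old mutants 3 to 5. The list's median relative to young mutants did not follow the split, however. It was -0.43 and -0.71 in old mutants 1 and 2, -0.70 in old mutant 3, and -1.31 and -1.73 in old mutants 4 and 5. On this measure old mutant 3 was level with old mutant 2, and only old mutants 4 and 5 were lower. New neuron markers had a median difference of 0.42 (16 of 18 higher), and markers of ependymoglia and radial glia one of 0.51. Skeletal muscle genes were lower in old mutants 1 and 2 by a median of 0.78. Circadian clock genes had a median difference of -0.37, with 11 of 45 higher in old mutants 1 and 2. The clock list summed to 75773 and 72635 in old mutants 1 and 2. It summed to 105770 to 134790 in old mutants 3 to 5 and 96952 to 114150 in young mutants. Cholesterol synthesis and handling genes had a median difference of 0.58, with 31 of 44 higher in old mutants 1 and 2. The forebrain gene TBR1 was at 10475 and 11060 in old mutants 1 and 2, against 6348, 5904 and 6298 in old mutants 3 to 5. Whether the subsets stand for separate families, batches, handling or hours of dissection is not given in the labels, and these cannot be told apart.

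Genes that separated the subsets lay near each other in the genome more often than other genes. Of the 613 genes that differed by at least 2 on the log2 scale, 41.1% had another such gene among the 5 tested genes on either side, against 23.2% of the tested genes outside the set. For the 224 genes that differed by at least 3 it was 30.8% against 9.22%. These shares follow the order of genes in the deposited table, an order chosen after seeing the data, in which 97.6% of adjacent placed genes were on the same chromosome in the RefSeq annotation. The RefSeq order itself placed only 65.7% of the 613 genes, so that check is void for them. Genes called between old and young mutants were placed for 88.2%, and 29.3% of them had another called gene among the 5 on either side in that order, against 13.08% of the remaining genes.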

How the data were processed

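RNA of telencephala was amplified and sequenced by the authors, who aligned reads with STAR to GRCz10 and normalised gene counts with DESeq2 (listed as version 3.9). The deposited values are a normalised signal, counts per gene divided by 1 size factor per library; multiplying back gave whole reads for all values within 1e-06. Gene names come from the reference name table and, for 2628 genes, from the symbols that the study itself gives. Here log2(value + 1) of all 20 telencephalon libraries was fitted in 1 limma 3.58.1 model (R 4.3.3) with 4 groups, for genes with a mean of at least 5, with a trended and robust variance prior and Benjamini-Hochberg adjustment. Calls needed an adjusted p no larger than 0.05 and a log2 fold change of 1 or more either way. Fold changes on this scale understate those of low genes. The script was tested on simulated data with known changes in old mutants. It recovered 27 of 67 changes of 2-fold, 61 of 67 of 4-fold and 63 of 66 of 8-fold, and called 4 unchanged genes. The changes were placed only in genes with a mean of at least 20, so recovery among lower genes was not measured. The simulated old mutants held no split into subsets, so these numbers need not hold for the real libraries. The call threshold was itself 2-fold, so many changes of about that size would not be called. The rule for naming genes took the granulins. It also took, each way, the 10 calls of greatest size whose age groups did not overlap and reached a mean of 50, the 8 genes that most separated old mutants 1 and 2 from old mutants 3 to 5, and the 5 calls that most differed in age effect from wildtype. From every list it took at most 4 genes, those lowest in p. The members, lists and rules were chosen with earlier results of these data known. Alternatives were DESeq2 1.42.0 and edgeR 4.0.16 on the recovered reads, other filters, pseudocounts and scalings, and leaving out libraries. The sources used here do not say which replicates share parents, so p-values measure the spread between these libraries. The sorted-cell libraries were not used here.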

Additional observations from a re-analysis of the deposited data

Results flagged for a closer look

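Among 154 groups of 5 libraries that were checked, 11 had a library far from the others, and chance alone flags about 1 group in 20. These were young mutant 5 for lmf2b (486 normalised counts), young mutant 4 for eva1bb (10.1), old mutant 1 for wu:fj29h11 (1088) and btr29 (35.3), young mutant 3 for col1a1b (1113), old mutant 5 for dlb (26.3) and ftr59 (16.6), old mutant 3 for hapln1a (491) and old mutant 2 for si:dkey-27p18.3 (108). For the median of the interferon list they were old mutant 1 (2.204) and young mutant 3 (0.64), as log2 differences from the mean of young mutants.

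The age effect differed between mutants and wildtype for 1200 genes in the limma interaction. Among the named genes the log2 difference, mutant minus wildtype, was positive for irge4 (7.07), si:dkey-9c18.3 (6.76), irgq1 (6.18), si:ch211-209l18.8 (6.17), si:dkey-27p18.3 (5.98), klhl41b (5.66), ftr59 (3.77), grnb (2.78), atp7a (2.35), eva1bb (1.43), slc25a47a (1.25), nr1d4b (1.12) and lmf2b (1.07). It was negative for nlrc11 (-10.06), si:ch1073-190k2.1 (-7.81), si:ch211-181d7.2 (-7.47), si:ch211-213a13.11 (-7.33), st3gal1 (-6.28), kif20a (-1.25) and stmn1a (-1.08).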

How the results depend on the processing

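No called result changed direction under any alternative run. The count of genes higher in old mutants (61) was 177 in DESeq2, 96 in edgeR, 93 after quantile normalisation, 38 at a minimum mean of 50, 19 with only the mutant libraries in the fit, 28 without the pineal libraries, 464 with old mutants 1 and 2 only, 27 with old mutants 3 to 5 only, and 635 with no fold threshold. The count of lower genes (202) was 234 in DESeq2, 162 in edgeR, 132 after quantile normalisation, 119, 50, 65, 1069, 148 and 594 in the same order, so the share of higher against lower calls moved with the scaling. Without 1 library these counts ran between 34 and 102 higher (34 without old mutant 1, old mutant 2 or young mutant 4, and 102 without old mutant 4) and between 106 and 366 lower (133 without old mutant 2, 366 without old mutant 4, 106 without young mutant 3, 111 without young mutant 4). Genes with a more positive age effect in mutants (513) were 833 with array weights, 314 at a minimum mean of 50 and 1413 with no fold threshold, and those with a more negative one (687) were 425 at that minimum and 1467 with no fold threshold. Leaving out 1 library gave 473 to 553 and 626 to 721. With a pseudocount of 4, 140 genes were higher and 243 lower by 2 log2 units in old mutants 1 and 2 than in old mutants 3 to 5 (217 and 396 with 1). The share of called genes with a called neighbour was 18.97% with 2 genes and 40.1% with 10 genes on either side, against 29.3% with 5, and for the 613 genes of the split it was 26.4% and 58.6%, against 41.1%. The table's row order was an alternative chosen after seeing the data. Of 44 called genes named by rule, 9 kept their call in every alternative. The cause of these differences was not tested.

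Whether the replicate numbers pair the libraries is not given in the labels. Same-numbered deviations correlated at -0.14 to 0.48. Old mutants 1, 4 and 5 correlated best with the young mutant of their own number, and old mutants 2 and 3 with another. The 0.48 was that of old mutant 4 and young mutant 4, both with high pineal genes (medians of 730.1 and 619 normalised counts). The part of pineal genes in it was not tested. With the number as a replicate block 53 genes were higher and 178 lower.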
